A study of Mus musculus with 2 samples.

Results

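The endothelin system of mouse skin was followed through 4 genes, the ligand gene Edn1, the converting enzyme gene Ece1 and the receptor genes Ednra and Ednrb, out of 33904 genes counted in 2 single-cell RNA-seq libraries. They were taken by their gene symbols, but the genes had been chosen by their UMI levels per cell type in these same libraries, so all levels and differences below are descriptions, and nothing was tested. On the GRCm38 build, Edn1 (ENSMUSG00000021367) lies on chromosome 13 from 42301476 to 42307990 and Ece1 (ENSMUSG00000057530) on chromosome 4 from 137862237 to 137965229, both on the plus strand. Ednra (ENSMUSG00000031616) lies on chromosome 8 from 77663031 to 77724464 and Ednrb (ENSMUSG00000022122) on chromosome 14 from 103814625 to 103844402, both on the minus strand.

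Endothelins are short secreted peptides. Edn1 encodes the precursor of endothelin-1, which is classically known as a product of blood vessel endothelium, and Ece1 encodes the membrane protease that cuts the inactive intermediate, big endothelin-1, to the active peptide. Both receptors are G protein-coupled. The endothelin A receptor, encoded by Ednra, drives contraction of vascular smooth muscle and prefers endothelin-1 and endothelin-2, whereas the endothelin B receptor, encoded by Ednrb, binds all endothelins alike, clears them, acts through nitric oxide in endothelium and, with endothelin-3, is needed for melanocytes. Injected endothelin-1 also causes itch, which is why its cellular sources are of interest in dermatitis.

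Dorsal skin came from female C57BL/6J mice aged 7 weeks, depilated 24 h before the start. An area with sides of 2 cm was painted daily with ethanol (Ctrl) or with 4.5 nmol MC903 per application (AD), and skin was taken on day 10. MC903, or calcipotriol, is a vitamin D analogue that causes dermatitis with features of atopic dermatitis (AD). The skin was digested to single cells and dead cells were removed, so cells that were lost in this step do not count, and the number of mice behind a library is not given in the sources used here.

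After filtering, 11399 Ctrl cells and 8179 AD cells were kept, with 105195951 and 61645227 UMIs (distinct transcript molecules) and medians of 7813 and 6330 UMIs per cell. The libraries shared 35 barcodes, 29 of them among kept cells. Each condition has 1 library, so no test between conditions was possible, and the 95% intervals (exact Poisson for levels, exact conditional binomial for ratios, exact Clopper-Pearson for shares of cells or UMIs) cover counting error only. CPM values relate the summed UMIs of 1 gene in a cell class to the total UMIs of that class, scaled to a fixed total. Cells were clustered without the endothelin genes and clusters were named from marker lists. In the classes used below all markers of the own list were found in both libraries, but the class names stand for marker patterns ("-like"). The named fibroblast-like clusters were nearly all from 1 library each (clusters 0, 3, 8 and 11 from Ctrl, clusters 1, 2, 4 and 5 from AD, and cluster 28 from both), and 1250 Ctrl cells and 949 AD cells stayed unnamed.

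Fibroblast-like cells held most of the Edn1 transcripts, although blood endothelial-like cells had the highest level per UMI. Of 2500 Edn1 UMIs in Ctrl, 1760 were in fibroblast-like cells, which is 70.4% (68.6 to 72.2), and of 2103 in AD, 1720 were there, which is 81.8% (80.1 to 83.4). These cells made up 44.3% and 57.8% of the kept cells. Blood endothelial-like cells held 5.24% and 10.1% of the Edn1 UMIs.

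**Figure D1:**
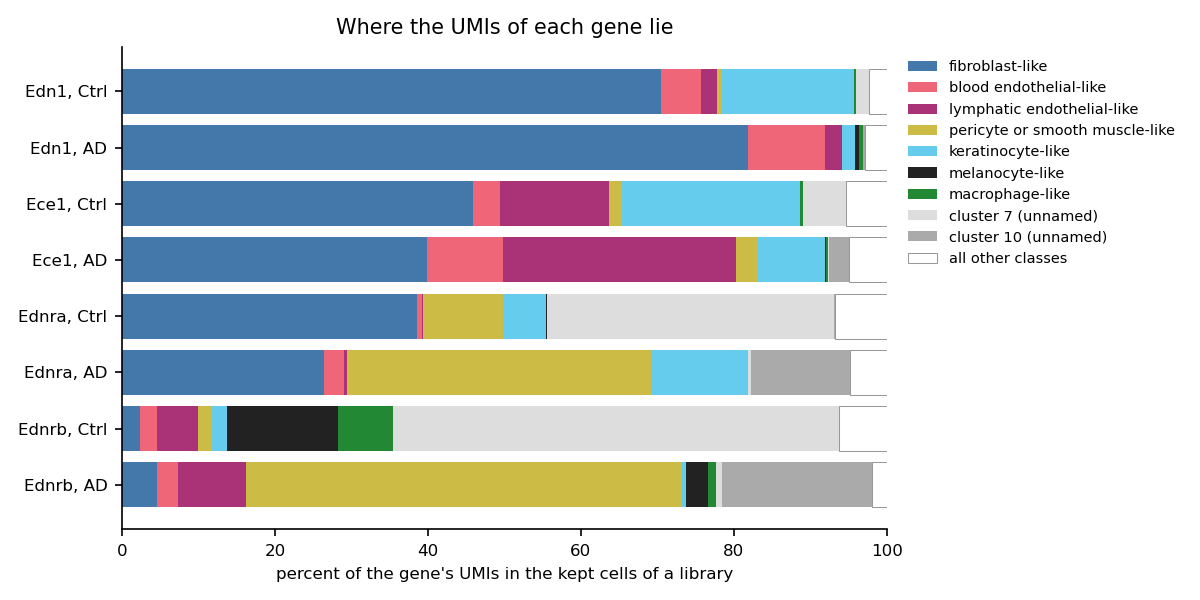
Each bar gives the percent of a gene's UMIs in the kept cells of 1 library by cell class, for 4 genes and both libraries. The blue part, fibroblast-like cells, is 70.4% of Edn1 in Ctrl and 81.8% in AD, while pericyte or smooth muscle-like cells hold 1.90% of Ednrb in Ctrl and 57.1% in AD.

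Per UMI the order was the other way round. Edn1 reached 164 CPM (137 to 195) in the 118 blood endothelial-like cells of Ctrl and 165 CPM (143 to 189) in the 127 of AD, and the log2 difference between the libraries (AD relative to Ctrl, as in all ratios below) was 0.00 (-0.32 to 0.33). Fibroblast-like cells had 39.8 CPM (37.9 to 41.7) in Ctrl and 48.0 CPM (45.7 to 50.3) in AD, a log2 ratio of 0.27 (0.17 to 0.37). The endothelial level was thus 4.13 times the fibroblast level in Ctrl (log2 2.05, 1.78 to 2.30) and 3.44 times in AD (log2 1.78, 1.57 to 1.99). With each cell gated alone on its markers this excess of endothelial over fibroblast cells was a log2 of 0.99 in Ctrl, and as a mean over cells it was 1.11 in AD. The ratio of AD to Ctrl within blood endothelial-like cells was 1.10 on the log2 scale under the same gating. The make-up of the class also differed, with 26 capillary-like cells and fewer than 20 venous-like cells in Ctrl against 2 and 74 in AD. Edn1 was 44.4 CPM in the capillary-like cells of Ctrl, 215 CPM in the venous-like cells of AD, and 224 and 106 CPM in the unnamed cells of Ctrl (82 cells) and AD (51 cells), so the equal class levels are sums over unequal parts. Of the 131 UMIs of Ctrl, 75 were in 24 cells of the unnamed sub-cluster 2, and 52 of these in 1 cell. Rgs5, Acta2 and Pdgfrb were among the leading genes of this sub-cluster. In venous-like sub-cluster 5 of AD, 59 of 61 UMIs were in 1 cell.

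The endothelial signal sat in few cells. An Edn1 UMI was found in 24.6% of the blood endothelial-like cells of Ctrl and in 19.7% of those of AD, and the 5 cells with the most UMIs held 60.3% and 72.2% of the 131 and 212 UMIs. Single cells reached 52 and 59 UMIs. In fibroblast-like cells 12.8% and 15.2% of the cells had an Edn1 UMI, and the top 5 cells held 5.85% and 6.69% of the UMIs. T cell-like cells, which are not known to make endothelin-1, had a UMI in 2.75% and 1.29% of cells at medians of 2790 and 5916 UMIs per cell, against medians of 5633 and 9145 in blood endothelial-like and 8190 and 6895 in fibroblast-like cells. Cells were then thinned to 1000 UMIs, leaving out 368 Ctrl cells and 499 AD cells with fewer (14 and 15 of the blood endothelial-like, 90 and 201 of the fibroblast-like and 31 and 13 of the T cell-like cells). The shares were then 8.65% and 7.14% in blood endothelial-like, 2.84% and 4.99% in fibroblast-like, and 0.907% and 0.267% in T cell-like cells.

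Other classes had lower levels of Edn1. Lymphatic endothelial-like cells had 25.4 CPM in Ctrl and 16.1 CPM (11.8 to 21.5) in AD, which was lower than in blood endothelial-like cells by a log2 of -2.69 and -3.35. Among classes with at least 20 Ctrl cells they were followed by T cell-like, mast cell-like and keratinocyte-like cells with 15.2, 13.1 and 12.7 CPM, and neighbours in this order had overlapping intervals. In AD dendritic cell-like cells had 26.4 CPM, but 23 of their 36 UMIs were in 1 cell. Pericyte or smooth muscle-like cells, which surround the vessels, had 12 UMIs in Ctrl and 1 in AD.

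**Figure D2:**
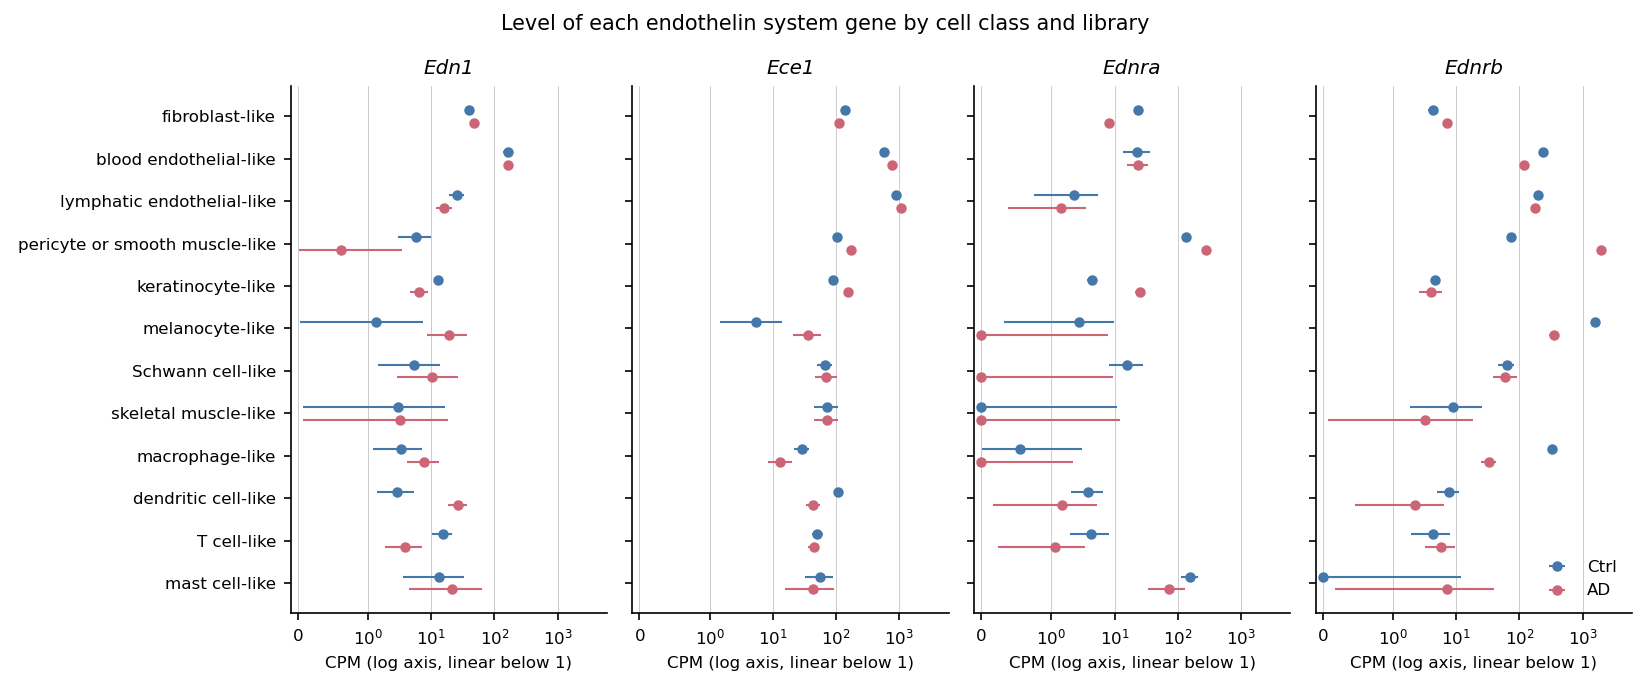
Level in CPM (log axis, linear below 1) of Edn1, Ece1, Ednra and Ednrb in 12 cell classes of the Ctrl (blue) and AD (red) library, with 95% Poisson intervals. Edn1 is highest in blood endothelial-like cells, Ece1 in lymphatic endothelial-like cells, and Ednrb in melanocyte-like cells of Ctrl and in pericyte or smooth muscle-like cells of AD.

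Within the fibroblasts, Edn1 lay mainly in the interstitial (Dpp4, HI-AP)-like subset, where HI-AP stands for adipocyte progenitors of the hypodermal interstitium. This subset had 65.7 CPM (62.6 to 68.9) in 2560 Ctrl cells and 96.0 CPM (90.7 to 102) in 1843 AD cells, a log2 ratio of 0.55 (0.44 to 0.65). Its sub-clusters were almost wholly from 1 library each (0, 4, 8 and 17 from Ctrl, 1 and 5 from AD). The library and the kind of interstitial-like cell therefore cannot be told apart in this ratio. All other fibroblast-like cells had 3.62 CPM in Ctrl and 21.7 CPM in AD. The interstitial subset was therefore 18.1 times higher in Ctrl (log2 4.18) and 4.43 times higher in AD (log2 2.15). Per UMI, blood endothelial-like cells still exceeded it by 2.50 times in Ctrl and 1.72 times in AD, a level that rests on few cells, as given above. An Edn1 UMI was found in 23.9% of the interstitial-like cells of Ctrl and 24.8% of those of AD, and after thinning in 5.51% and 8.01%. Both shares were below the blood endothelial-like shares given above in Ctrl and above them in AD.

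The interstitial-like sub-clusters of Ctrl were far from uniform. Sub-cluster 0, led by Smpd3, Anxa3, Chrdl1, Sfrp2 and Plac8, had 122 CPM (116 to 129) and an Edn1 UMI in 43.0% of 1168 cells. Sub-cluster 17, which also had leading interferon-inducible genes such as Ifit3 and Isg15, had 77.7 CPM (62.8 to 95.1) in 103 cells. Sub-cluster 8, led by Myoc, Thbs4 and Cilp, had 27.1 CPM, and sub-cluster 4, led by Postn, Lum and Lepr, had 1.87 CPM (1.07 to 3.04) in 781 cells. Edn1 thus marked only some of the cells that carried the interstitial name.

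In AD the highest levels were in sub-cluster 1, interstitial-like and led by Cxcl13, Igfbp3 and Ifi207, with 136 CPM (128 to 145) in 1168 cells, and in sub-cluster 10, Areg-like (adipogenesis-regulatory), with 165 CPM (137 to 197) in 370 cells. The other interstitial-like sub-cluster of AD, sub-cluster 5, had 34.6 CPM (29.7 to 40.2) and a UMI in 11.4% of 673 cells. Sub-cluster 10 got its name from Fmo2, F3 and Mgp, but was led by Cxcl13, Igfbp3, Prg4, Galnt15 and Ifi207. All of these except Prg4 were also among the leading genes of sub-cluster 1. Cxcl13 and Igfbp3 were among those of Areg-like sub-clusters 3 and 9 as well. The Edn1 level of sub-cluster 10 is therefore not assigned to either subset. Sub-cluster 10 was shallow, with a median of 1188 UMIs per cell, and had an Edn1 UMI in 16.8% of cells against 32.5% in sub-cluster 1. After thinning to 1000 UMIs the shares were 12.6% of the 206 cells left of sub-cluster 10, with 164 too shallow, and 11.3% of the 1164 left of sub-cluster 1. The other Areg-like sub-clusters of AD with at least 50 cells ranged from 7.99 CPM (sub-cluster 9) to 52.3 CPM (sub-cluster 11). The Areg-like subset of Ctrl had no Edn1 UMI in 136 cells, which allows up to 2.21% of cells with a UMI (3 counts of the total) and sets no limit on cells that express the gene, and the whole Areg-like subset of AD had 36.4 CPM (33.2 to 39.9) in 1929 cells. Since 370 of the AD cells are the shallow sub-cluster and most Areg-like sub-clusters hold cells of 1 library, the subset differs in its make-up between the libraries.

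**Figure D3:**
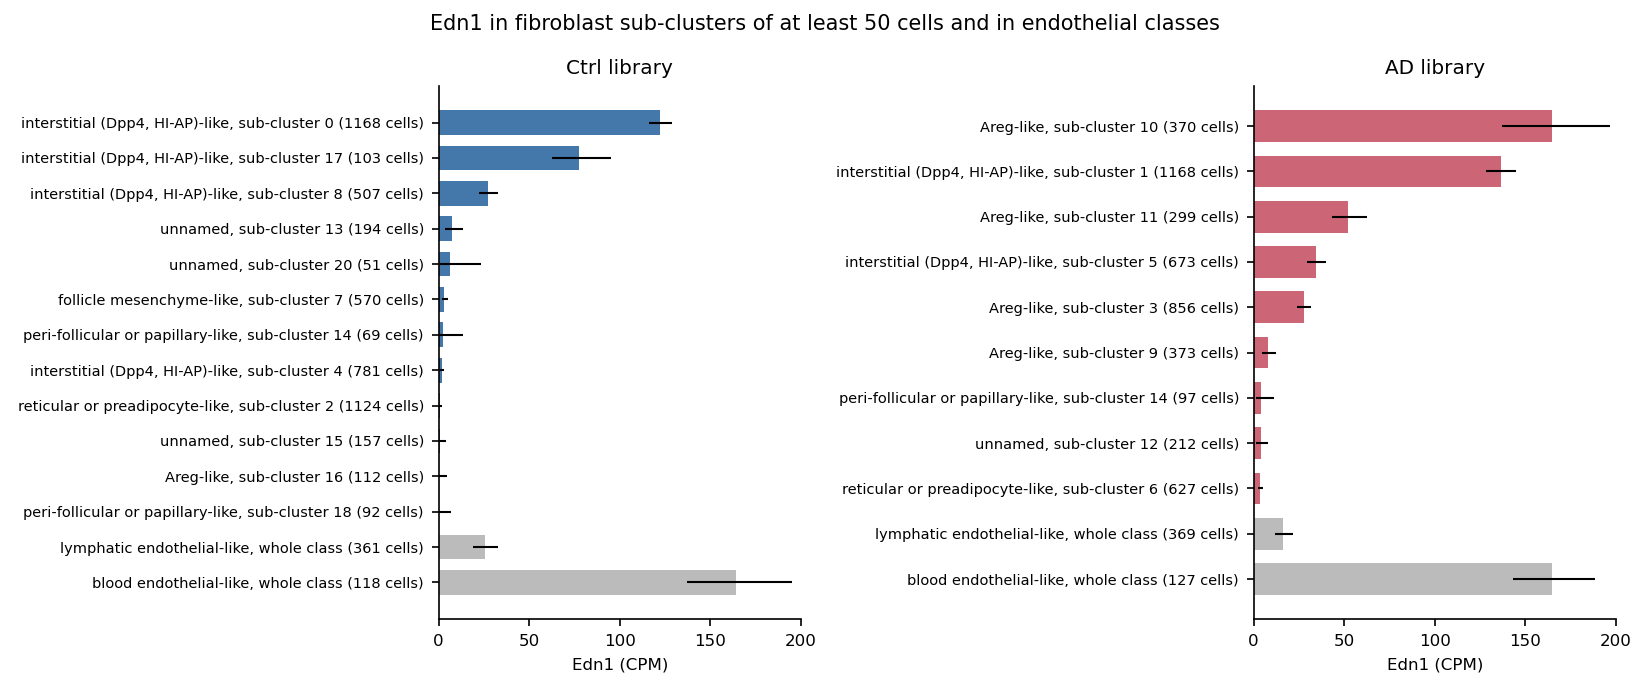
Edn1 level in CPM with 95% Poisson intervals as bars in fibroblast sub-clusters of at least 50 cells (coloured) and in the whole blood and lymphatic endothelial-like classes (grey), for Ctrl on the left and AD on the right. Sub-cluster 0 of Ctrl with 122 CPM and sub-clusters 1 and 10 of AD with 136 and 165 CPM come nearest to blood endothelial-like cells with 164 and 165 CPM.

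The other fibroblast subsets had little Edn1. Reticular or preadipocyte-like cells had 0.954 CPM in Ctrl and 3.71 CPM in AD, peri-follicular or papillary-like cells 1.05 and 4.23 CPM, and the follicle mesenchyme-like cells of Ctrl 3.14 CPM. The unnamed clusters 7 (Ctrl, led by Col11a1, Lrrc15 and Acta2) and 10 (AD, led by the agouti gene a, Rasd1, Prlr, Dkk2 and Spp1) had 4.57 and 1.72 CPM.

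Keratinocytes were the other class with a sizeable part of the Edn1 UMIs in Ctrl, 17.4%, against 1.76% in AD. The level was 12.7 CPM (11.5 to 13.9) in Ctrl and 6.49 CPM (4.57 to 8.95) in AD. The Ctrl class held suprabasal and unnamed sub-clusters that were nearly absent from AD, so basal-like keratinocytes were also compared alone. Even these lay in separate sub-clusters, with sub-clusters 2, 12, 14 and 18 almost wholly from Ctrl, the first of them led by follicle genes such as Lhx2 and Lgr5, and sub-clusters 4, 7 and 16 mostly from AD. Their Edn1 levels were 15.3 to 48.5 CPM in the former and 1.05 to 16.5 CPM in the latter. The overlap rests on sub-cluster 4 of AD, where 16 of the 30 UMIs were in 1 cell. With separate sub-clusters, the library and the kind of basal cell cannot be told apart. Basal-like cells as a whole had 23.3 CPM (19.5 to 27.7) with a UMI in 15.0% of 466 Ctrl cells and 6.90 CPM (4.80 to 9.59) with a UMI in 4.44% of 383 AD cells, a log2 ratio of -1.76 (-2.34 to -1.21). In the whole class the mean of the levels of single cells gave a log2 ratio of 0.054, in place of -0.97 from summed UMIs, so the direction for the whole class rests on how cells are weighted. T cell-like cells, which are not known to make endothelin-1, were also lower in AD, with 15.2 and 3.85 CPM (log2 -1.98, -3.17 to -0.92). The lower level is therefore not read as particular to keratinocytes, and its cause was not tested.

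Ece1, the converting enzyme gene, was highest in the vessel linings. Lymphatic endothelial-like cells had 879 CPM (840 to 919) in Ctrl and 1063 CPM (1025 to 1101) in AD, and blood endothelial-like cells had 580 CPM (528 to 635) and 767 CPM (719 to 816). The lymphatic level was higher than the blood endothelial level by a log2 of 0.60 (0.45 to 0.75) in Ctrl and 0.47 (0.37 to 0.58) in AD. An Ece1 UMI was present in 84.5% and 88.6% of lymphatic and in 84.7% and 85.0% of blood endothelial-like cells.

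Both endothelial classes had more Ece1 in AD, with log2 ratios of 0.27 (0.19 to 0.36) in lymphatic and 0.40 (0.24 to 0.57) in blood endothelial-like cells. In blood endothelial-like cells, whose make-up differed as given above, Ece1 was 595 CPM in the capillary-like cells of Ctrl, 814 CPM in the venous-like cells of AD, and 564 and 717 CPM in the unnamed cells of Ctrl and AD. The ratio in this class ranged from 0.19 to 0.64 over the alternatives. Fibroblast-like cells were at 138 CPM (135 to 141) in Ctrl and 111 CPM (107 to 114) in AD, a log2 ratio of -0.32 (-0.38 to -0.26), and the blood endothelial level was 4.20 times the fibroblast level in Ctrl and 6.94 times in AD. Among the named fibroblast subsets Ece1 ranged from 64.2 to 174 CPM in Ctrl and from 93.0 to 124 CPM in AD.

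Ece1 was found in most classes. Pericyte or smooth muscle-like cells had 104 and 174 CPM, keratinocyte-like cells 90.7 and 154 CPM, and dendritic cell-like cells 106 and 43.2 CPM, in Ctrl and AD. Basal-like keratinocytes had 166 and 152 CPM. Macrophage-like cells had 28.7 and 13.1 CPM, and melanocyte-like cells 5.40 and 36.1 CPM from 4 and 17 UMIs. Of all Ece1 UMIs, fibroblast-like cells held 45.9% in Ctrl and 39.8% in AD, and lymphatic endothelial-like cells 14.3% and 30.5%.

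Ednra, the endothelin A receptor gene, was high in the cells of the vessel wall, which had its highest class level in AD. Pericyte or smooth muscle-like cells had 134 CPM (119 to 151) in Ctrl and 277 CPM (252 to 304) in AD, a log2 ratio of 1.04 (0.83 to 1.27), with a UMI in 51.2% of 301 and 68.9% of 196 cells. The ratio was 0.32 with cells gated alone and 0.61 as a mean over cells. The class consists of cluster 18, led by Rgs5 and Myh11 and present in both libraries, and of cluster 33, led by contractile genes such as Myh11, Des and Synpo2, with 60 cells of Ctrl and 7 of AD. Cluster 33 had 2 Ednra UMIs in Ctrl. In cluster 18 alone, the levels were 211 CPM (187 to 238) and 293 CPM (266 to 321), and the log2 ratio was 0.47 (0.25 to 0.69).

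In fibroblast-like cells Ednra was lower in AD, with 23.3 CPM (21.9 to 24.7) in Ctrl and 8.31 CPM (7.39 to 9.31) in AD, a log2 ratio of -1.48 (-1.68 to -1.30). The subsets behind it differed. Follicle mesenchyme-like cells, sub-cluster 7 led by Wif1, Trps1 and Hhip, had 128 CPM (117 to 139) and a UMI in 53.7% of 570 cells, held 569 of the 1029 UMIs of Ctrl fibroblast-like cells and had no counterpart in AD. Peri-follicular or papillary-like cells had 114 CPM (93.2 to 137) in Ctrl and 14.8 CPM (8.09 to 24.8) in AD. In the interstitial-like subset the levels were 6.48 and 0.631 CPM, and in the reticular or preadipocyte-like subset 5.85 and 13.9 CPM, which is the opposite direction. T cell-like cells, which should lack the receptor, had 4.26 and 1.15 CPM. The sub-clusters of both subsets were almost wholly from 1 library each, with reticular or preadipocyte-like sub-cluster 2 from Ctrl and 6 from AD. The library and the kind of cell therefore cannot be told apart in either subset.

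Much Ednra lay outside the named fibroblasts. Cluster 7 of Ctrl held 37.5% of all Ednra UMIs of its library, with 112 CPM (105 to 119) and a UMI in 58.1% of 781 cells. Its fibroblast markers summed to 37411 CPM and its pericyte or smooth muscle markers to 2094 CPM, and it was left unnamed because the latter led its top genes. The proliferating cluster 32 of Ctrl, with Lrrc15 and Col11a1 also among its leading genes, had 74.7 CPM. Cluster 10 of AD had 50.5 CPM (42.6 to 59.3). With clusters 7 and 32 counted as fibroblasts, the log2 ratio of Ednra in fibroblasts was -2.22.

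In keratinocyte-like cells Ednra was higher in AD, with 4.41 CPM (3.74 to 5.17) in Ctrl and 25.1 CPM (21.1 to 29.6) in AD. In Ctrl 72 of the 151 UMIs were in the unnamed sub-cluster 10, which had Lef1, Krt35 and Msx1 among its leading genes, with 47.5 CPM and a UMI in 35.1% of 114 cells. Its level was above those of AD sub-clusters 4 and 7, with 39.5 and 20.3 CPM. Basal-like keratinocytes had 8 UMIs in 466 Ctrl cells, or 1.41 CPM (0.611 to 2.79), and 134 UMIs in 383 AD cells, or 26.4 CPM (22.1 to 31.3), which gave a log2 ratio of 4.22 (3.20 to 5.46) between basal cells of separate sub-clusters. A UMI was present in 7 Ctrl cells and in 90 AD cells (23.5%), and after thinning the shares were 0% and 2.33%. T cell-like cells, which should lack the receptor, had a UMI in 1.03% and 0.775% of cells. Fibroblast markers summed to 2344 CPM in keratinocyte-like cells of Ctrl and to 345 CPM in those of AD, and their pericyte or smooth muscle markers to 154 and 26.8 CPM. The part of these markers in the result was not tested.

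Mast cell-like cells had the highest class level of Ednra in Ctrl, with an interval that overlapped that of pericyte or smooth muscle-like cells. They had 154 CPM (113 to 205) and a UMI in 25.4% of 138 Ctrl cells and 71.7 CPM (34.4 to 132) in 19.6% of 46 AD cells. Blood endothelial-like cells had 22.6 and 23.3 CPM, and lymphatic endothelial-like cells 2.31 and 1.40 CPM. Of the 18 blood endothelial UMIs of Ctrl, 16 were in the 24 Ctrl cells of the unnamed sub-cluster 2. Rgs5, Acta2, Pdgfrb and Myh11 were among the leading genes of this sub-cluster. In AD all 30 UMIs were in unnamed cells, and the 74 venous-like cells had none. The part of pericyte or smooth muscle markers in these levels was not tested. In macrophage-like cells, 1 UMI was found in Ctrl and none in AD.

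Ednrb, the endothelin B receptor gene, was high in few classes, and these differed between the libraries. In pericyte or smooth muscle-like cells it was 73.6 CPM (62.4 to 86.2) in Ctrl, from 153 UMIs, and 1962 CPM (1894 to 2031) in AD, from 3175 UMIs, which is 26.7 times as high (log2 4.74, 4.50 to 4.98). In cluster 18 alone it was 92.3 CPM and 2076 CPM (log2 4.49, 4.23 to 4.77). The share of cells with a UMI was 16.9% (51 of 301) and 51.5% (101 of 196), and after thinning 4.76% and 38.7%, so the share was higher in AD also at equal depth. The 5 cells with the most UMIs held 51.6% of the UMIs in Ctrl and 27.1% in AD, and the highest count in a cell was 25 and 248.

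The class was then split by Kcnj8 and Abcc9, subunits of a potassium channel that mark pericytes. Cells with a UMI of either had 277 CPM of Ednrb in 65 cells of Ctrl and 4528 CPM in 76 cells of AD (log2 4.03, 3.75 to 4.33), and 32.3% and 85.5% of them had an Ednrb UMI. Cells without such a UMI had 28.2 CPM in 236 cells of Ctrl and 218 CPM in 120 cells of AD (log2 2.95, 2.49 to 3.43). Ednrb was thus higher in AD on both sides of this split, which was made after the levels had been seen. The summed pericyte or smooth muscle markers of the class were 25498 CPM in Ctrl, where Myh11 was the highest, and 15516 CPM in AD, where Rgs5 was. Melanocyte markers summed to 82.2 and 56.2 CPM, and of these Pmel, Dct, Tyrp1 and Mlana were at 0 in AD. Endothelial markers summed to 54.4 and 239 CPM, and their part in the result was not tested.

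**Figure D4:**
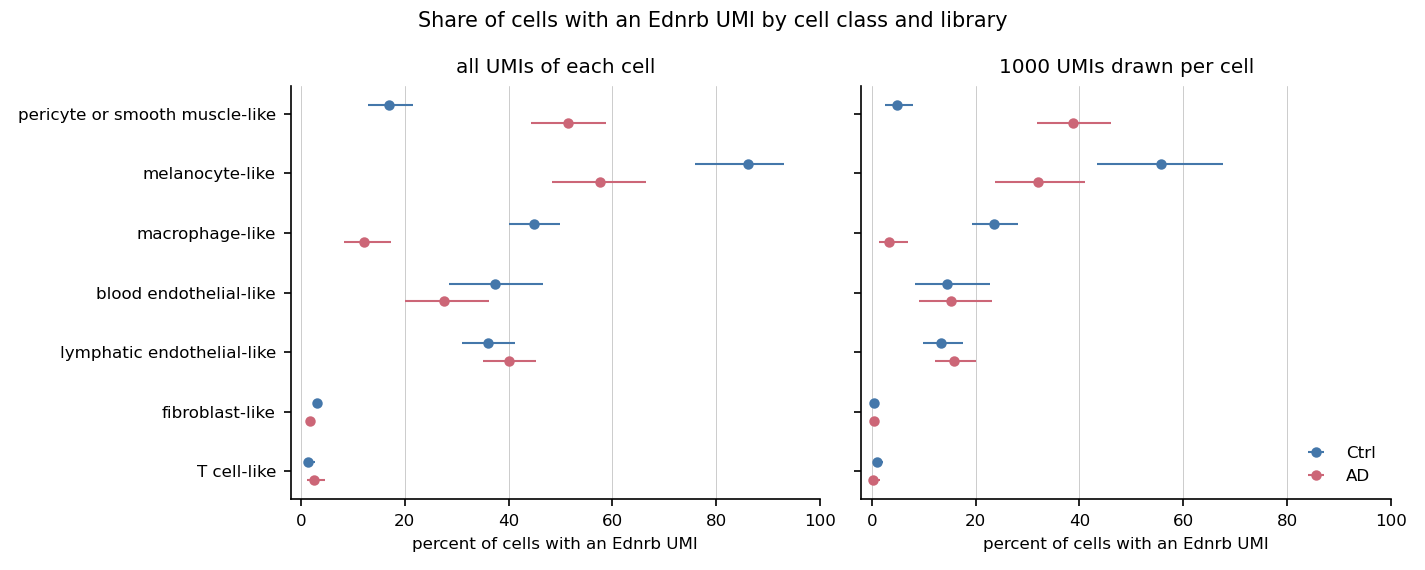
Percent of cells with an Ednrb UMI in 7 cell classes of Ctrl (blue) and AD (red), with 95% Clopper-Pearson intervals, from all UMIs (left) and after thinning to 1000 UMIs the cells that had as many (right). In pericyte or smooth muscle-like cells the share is higher in AD (16.9% and 51.5%), in macrophage-like cells lower (45.0% and 12.2%), and in T cell-like cells it is 1.37% and 2.58%.

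Both receptor genes were found together in 6.31% of pericyte or smooth muscle-like cells of Ctrl (19 of 301) and in 40.3% of those of AD (79 of 196). In cluster 7 of Ctrl 234 of 781 cells had a UMI of both, in cluster 10 of AD 9.63% of cells, and in fibroblast-like cells 0.633% and 0.296%.

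In macrophage-like cells the difference ran the other way. They had 323 CPM of Ednrb (297 to 350) with a UMI in 45.0% of 418 Ctrl cells, and 32.8 CPM (24.7 to 42.7) with a UMI in 12.2% of 221 AD cells, a log2 ratio of -3.30 (-3.72 to -2.90). After thinning, 23.5% and 3.40% of cells had a UMI. The ratio ranged up to -2.37 over the alternatives. The macrophage markers themselves summed to 9393 CPM in Ctrl and 5349 CPM in AD, fibroblast markers in these cells to 4899 and 999 CPM, and melanocyte markers to 108 and 91.3 CPM, and their part in the result was not tested. At resolution 2 the macrophage-like cells formed a cluster led by Lyz2, Ccl4 and Retnla, with 409 Ctrl and 108 AD cells. A further cluster, led by Il1b, Cxcl2 and Ccl4, had 11 Ctrl and 113 AD cells. Ednrb was not compared within either cluster, so the part of this make-up was not tested.

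Melanocyte-like cells, in which the endothelin B receptor has its best known role, had 1578 CPM of Ednrb (1489 to 1671) with a UMI in 86.1% of 72 Ctrl cells, and 348 CPM (297 to 406) with a UMI in 57.6% of 125 AD cells, a log2 ratio of -2.18 (-2.42 to -1.94), or -1.07 with cells gated alone. The melanocyte markers were lower in AD too, with sums of 37106 CPM in Ctrl and 3964 CPM in AD, and the median depth was 6892 and 2852 UMIs per cell. After thinning the shares were 55.7% and 31.9%, and the part of the markers and of depth in the result was not tested.

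Endothelial classes had intermediate levels. Blood endothelial-like cells had 235 CPM of Ednrb (202 to 271) in Ctrl and 120 CPM (102 to 140) in AD, a log2 ratio of -0.97 (-1.29 to -0.65), with a UMI in 37.3% and 27.6% of cells. After thinning the shares were 14.4% and 15.2%, and with all deposited barcodes the log2 ratio was 0.11, so no direction is read from it. Pericyte or smooth muscle markers in blood endothelial-like cells summed to 1480 CPM in Ctrl and 507 CPM in AD. Lymphatic endothelial-like cells had 195 CPM (177 to 215) and 173 CPM (158 to 189), a log2 ratio of -0.17 (-0.36 to 0.02), which was 0.84 with cells gated alone, so no direction is read here either.

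Fibroblast-like cells as named had little Ednrb, 4.23 CPM in Ctrl and 7.06 CPM in AD. The share of cells with a UMI was 3.13% and 1.71%, against 1.37% and 2.58% in T cell-like cells, and after thinning 0.504% and 0.420% against 0.907% and 0.267%, so the share lay above the T cell-like share in 1 library and below it in the other, and no expression is read from it. In AD, 172 of the 253 UMIs were in the unnamed sub-cluster 12, led by Coch, Tnc, Chchd10 and Dkk2, with 94.3 CPM in 212 cells. The unnamed clusters held far more. Cluster 7 of Ctrl had 525 CPM (510 to 540) with a UMI in 45.6% of cells and 58.3% of all Ednrb UMIs of its library, cluster 32 of Ctrl 319 CPM (289 to 351), and cluster 10 of AD 374 CPM (352 to 397) with a UMI in 35.0% of 706 cells. With clusters 7 and 32 counted as fibroblasts, the log2 ratio in fibroblasts was -3.54 in place of 0.74. This adds cells of Ctrl almost alone, since cluster 10 of AD stays out. With doublets left out, clusters of both kinds were named fibroblast-like, and the ratio was -1.34. The ratio in fibroblasts therefore depends on where the border of the class is set.

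The differences can be read against all genes of the same cells. A gene was counted as past 2-fold when its CPM, with 1 added, differed by 2 times or more between the libraries, among genes with at least 10 CPM in either. In fibroblast-like cells 1 of the 3 genes of the system at this level was past 2-fold (Ednra), where 19.5% of all genes were. In blood endothelial-like cells 0 of 4 were, against 18.9%, and in lymphatic endothelial-like cells 0 of 3, against 11.5%. In keratinocyte-like cells 1 of 3 was (Ednra), against 17.3%, and in pericyte or smooth muscle-like cells 2 of 3 (Ednra and Ednrb), against 18.2%. In macrophage-like cells 2 of 2 were (Ednrb and Ece1, both lower in AD), against 21.0%, and in melanocyte-like cells 3 of 3, with Edn1 and Ece1 higher and Ednrb lower, against 39.1%. The Edn1 and Ece1 values of melanocyte-like cells rest on at most 17 UMIs. The genes were chosen with these contrasts known, so nothing is read from the counts.

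The other endothelins had their own distributions. Edn3, the ligand of the melanocyte lineage, had 2851 UMIs in Ctrl and 69 in AD, of which fibroblast-like cells held 92.3% and 89.9%. It reached 529 CPM (508 to 551) with a UMI in 80.2% of the follicle mesenchyme-like cells of Ctrl, a subset with no AD counterpart. In the peri-follicular or papillary-like sub-cluster 14, present in both libraries, Edn3 was 158 CPM (122 to 202) in Ctrl and 62.7 CPM (47.6 to 81.0) in AD. Edn2 lay mostly in keratinocyte-like cells in Ctrl, with 359 of 370 UMIs and 10.5 CPM, against 1.40 CPM in AD. Of the 359 UMIs, 185 were in basal-like sub-cluster 2 (71.7 CPM, 227 cells) and 40 in basal-like sub-cluster 12 (92 cells). Neither sub-cluster held a cell of AD, so the library and the kind of cell cannot be told apart here.

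Of the 12 other pathway genes, among them the endothelin-degrading protease gene Mme, the G protein genes Gnaq and Gna11, the phospholipase C genes Plcb1, Plcb3 and Plcb4, and the endothelial nitric oxide synthase gene Nos3, 7 reached 10 CPM in fibroblast-like cells. None of these was past 2-fold higher and 2 were past 2-fold lower, Edn3 (log2 -5.10) and Plcb1 (log2 -1.65), with a median log2 of -0.70 against -0.07 over all genes, of which 610 were higher and 1153 lower among 9056 tested (19.5% in all). In pericyte or smooth muscle-like cells 4 of 6 were lower and none higher, where 1071 of 9087 genes were lower and 585 higher (18.2% in all), with a median log2 of -1.40 against -0.07. Plcb4 had 904 CPM in Ctrl and 222 CPM in AD there (log2 -2.02), Mme 55.3 and 8.03 CPM (log2 -2.78), Plcb1 52.4 and 15.4 CPM, and Plcb3 37.0 and 16.7 CPM. The make-up of this class differed between the libraries, with 60 Ctrl cells and 7 AD cells in cluster 33. The pathway genes were not compared in cluster 18 alone, so the part of the make-up was not tested. In the same class Gnaq (112 and 80.3 CPM) and Gna11 (110 and 101 CPM) stayed within 2-fold. Nos3 was 94.1 and 116 CPM in blood endothelial-like cells and 60.0 and 25.6 CPM in lymphatic endothelial-like cells. Ece2, Ecel1 and Kel, related proteases, had 120 and 14, 7 and 4, and 1 and 0 UMIs in all kept cells.

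Edn1 was also set beside 13 other ligands that are linked to itch. In fibroblast-like cells 7 of the 14 reached 10 CPM, 2 were past 2-fold higher in AD and 1 past 2-fold lower, beside 19.5% of all genes in either direction. Lif had 18.8 CPM (17.5 to 20.1) in Ctrl and 59.0 CPM (56.5 to 61.6) in AD, Tac1, the substance P gene, 9.22 and 31.5 CPM, and Postn, periostin, 902 and 46.8 CPM. Lif was 3.14 times as high in AD in fibroblast-like cells, and also 3.53 times in lymphatic endothelial-like, 2.84 times in T cell-like and 2.56 times in keratinocyte-like cells. The difference in Lif is therefore not particular to fibroblasts, and its cause was not tested. Postn was among the leading genes of fibroblast sub-clusters 4 and 15, with 781 and 157 cells of Ctrl and none of AD. In blood endothelial-like cells 3 of the 14 reached 10 CPM, namely Edn1, Cxcl10 with 21.3 and 123 CPM, and Postn with 59.0 and 50.5 CPM. T cell-like cells had 180 and 13.5 CPM of Postn, above the endothelial level in Ctrl and below it in AD. No endothelial source of Postn is therefore read from these levels. Of the ligands with 100 UMIs or more in fibroblast-like cells of both libraries, Edn1 was the only one with a higher level in blood endothelial than in fibroblast-like cells in both libraries. Il33 had 33.6 and 27.4 CPM in fibroblast-like cells against 0 and 4 UMIs in blood endothelial-like cells, and Cxcl10 191 and 198 CPM against 21.3 and 123 CPM. Fibroblast-like cells held most UMIs of Il33 (77.4% and 79.8%), Lif (77.2% and 76.1%) and Tac1 (93.8% and 95.4%), as they did of Edn1, whereas Tslp, a trigger of dermatitis, was mainly in keratinocyte-like cells of AD (67.7% of its UMIs, 200 CPM against 2.07 CPM in Ctrl).

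Genes with the most similar pattern were sought by Pearson's correlation of log2(CPM + 10) over 35 profiles of a class in a library, among 8818 genes with at least 50 CPM in a profile. The profiles share 2 libraries, so the values describe likeness only. For Edn1 they were Unc45b (r = 0.82), Ace (r = 0.81), Stc1 (r = 0.81), Ly6c1 (r = 0.80) and Zfp979 (r = 0.79), all highest in blood endothelial-like cells. For Ece1 they were Sema3f (r = 0.86), Cnksr3, Yes1, Abcg2 and Smad1 (all r = 0.85), highest in lymphatic or blood endothelial-like cells. For Ednra they were Angpt1 (r = 0.82), Mfge8 (r = 0.80), Pdgfrb (r = 0.79), Fblim1 (r = 0.77) and Tpm2 (r = 0.72), all highest in pericyte or smooth muscle-like cells. For Ednrb the likeness was weaker, with Mef2c (r = 0.76), Gucy1b1 (r = 0.72), Dennd5b (r = 0.71) and Myo10 (r = 0.69), highest in pericyte or smooth muscle-like or melanocyte-like cells.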

How the data were processed

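The authors deposited, per library, a matrix of UMI counts per gene and cell barcode from 10x 3′ libraries, without normalization. The submitters' processing notes name Cell Ranger 3.1.0, Seurat 5.0 and mm10; the methods and the file header give other versions of Cell Ranger. Barcodes under 200 or over 6000 genes, or over 10% mitochondrial UMIs, were dropped. Both libraries were clustered together with scanpy 1.11.5 and leidenalg 0.10.2 (2000 variable genes without the 29 genes whose levels are compared, 30 components, 20 neighbours, resolution 1). Clusters were named from marker lists: at least 3 markers found in 10% of cells at 2 times the lower quartile over clusters, with no more markers of another type among the 10 leading genes. Fibroblasts, blood endothelium and keratinocytes were clustered again. Doublets were kept in the values reported. UMIs were summed per class and library. Where a share was 0, 3 counts gave its limit. The ratios were tested on simulated Poisson counts, which follow the counting model that the intervals assume. Of 200 changed genes, 194 in fibroblast-like and 192 in blood endothelial-like cells had their true value within the interval, with largest log2 errors of 0.21 and 0.93. Counts clumped in few cells were not simulated, so this says nothing on how the intervals cover them.

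The genes, lists, markers and tests were chosen with earlier results of these data known. Named are the 4 genes in every class, 12 pathway genes, 14 itch-linked ligands, and the 5 genes most like each of the 4, of which 1 is not reported here. The marker lists were used whole. The alternatives were other cell filters, doublet removal, resolutions, gating of single cells, per-cell means and TMM scaling (edgeR 4.0.16, in R 4.3.3).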

Additional observations from a re-analysis of the deposited data

Results flagged for a closer look

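Ednra and Ednrb differed in direction between cell classes when AD was set against Ctrl, and the difference between classes was not tested, since each condition has 1 library. Ednra was lower in AD in fibroblast-like cells (log2 ratio -1.48) and higher in keratinocyte-like cells (log2 ratio 2.51) and in pericyte or smooth muscle-like cells (log2 ratio 1.04, or 0.47 without cluster 33). Ednrb was higher in AD in pericyte or smooth muscle-like cells (log2 ratio 4.74) and lower in macrophage-like cells (log2 ratio -3.30) and melanocyte-like cells (log2 ratio -2.18).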

How the results depend on the processing

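With 1 library per condition no replicate could be left out. No paired analysis was possible because each condition has 1 library and no test was run. The log2 ratios below are AD relative to Ctrl, and the cause of a change was not tested. Edn1 in fibroblast-like cells (0.27) became 0.39 with all deposited barcodes, 0.38 with doublets left out, 0.43 with cells gated alone, 0.11 at resolution 2, 0.84 as a mean over cells and 0.41 with TMM on all genes. Edn1 in blood endothelial-like cells (0.00) became 1.10 with cells gated alone, and in keratinocyte-like cells (-0.97) -1.66 with all barcodes and 0.054 as a mean over cells, which reversed it. Ednra in fibroblast-like cells (-1.48) became -1.94 with all barcodes, -1.12 with at least 500 genes and 1000 UMIs, -1.72 without doublets, -1.78 gated and -2.09 as a mean. Ednrb in fibroblast-like cells (0.74) reversed to -0.64 with all barcodes, -1.34 without doublets, -1.79 gated and -1.33 at resolution 2, and was 2.58 with at least 500 genes and 1000 UMIs. Ednrb in blood endothelial-like cells (-0.97) reversed to 0.11 with all barcodes and was -0.60 as a mean. Ece1 in fibroblast-like cells (-0.32) was -0.22 without doublets, -0.20 gated, -0.24 at resolution 2, -0.23 with TMM and -0.18 with TMM on all genes, and in blood endothelial-like cells (0.40) 0.19 gated, 0.21 as a mean, 0.58 with TMM and 0.64 with TMM on all genes. Edn1 of blood endothelial-like over fibroblast-like cells was, on the log2 scale, 2.31 without doublets and 0.99 gated in Ctrl, and 2.13 without doublets, 2.16 at resolution 2 and 1.11 as a mean in AD. The percent of Edn1 UMIs in fibroblast-like cells was 63.3 with all barcodes, 74.5 without doublets and 72.9 gated in Ctrl, and 78.2 with all barcodes, 77.3 gated and 65.2 at resolution 2 in AD.

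Chosen after seeing the data, counting clusters 7 and 32, nearly all Ctrl cells, as fibroblasts gave 0.53 for Edn1, -2.22 for Ednra, -3.54 for Ednrb (reversed) and -0.20 for Ece1 in fibroblasts, 2.31 for Edn1 of blood endothelial-like over fibroblast cells of Ctrl, and 72.3% of Edn1 UMIs of Ctrl. Basal keratinocytes alone, also chosen later, gave -1.76 for Edn1. Ednrb kept its direction in pericyte or smooth muscle-like (4.23 to 4.85), macrophage-like (-3.45 to -2.37) and melanocyte-like cells (-2.30 to -1.07) under every alternative run for them. Scrublet marked no AD cell, so the 443 cells at or above the cut for the highest-scoring 5%, ties included, were left out there. Depth limits the classes with few cells, such as the 118 and 127 blood endothelial-like cells.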
